A study of Homo sapiens with 12 samples.

Results

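The replication-dependent histone genes were taken as all symbols of the deposited expression table that begin with HIST1H, HIST2H, HIST3H or HIST4H and go on with a histone type, with no filter on level. The rule found 72 table entries, which came to 70 genes once the highest entry of a repeated symbol was kept, of 24556 symbols in all. There were 6 genes for the linker histone H1, 16 for H2A, 20 for H2B, 12 for H3 and 15 for H4, and 1 entry that merged HIST1H2AD with HIST1H3D. Of the 70, 55 belonged to the HIST1 cluster, 11 to HIST2, 3 to HIST3 and 1 to HIST4. RNA came from LM2 cells, in 4 groups of 3 libraries. LM2 is a breast cancer cell line derived from MDA-MB-231 cells and chosen for its ability to colonise the lung. One group was transduced with a scramble short hairpin RNA (shRNA) and another with an shRNA against EZH2. The remaining pair was transfected with a small interfering RNA (siRNA), either scramble or directed at ZRANB1. The protein EZH2 is the catalytic subunit of Polycomb repressive complex 2, which methylates lysine 27 of histone H3, and ZRANB1 is a deubiquitinase. All groups shared the LM2 line and its serum-containing medium. The sources used here do not give the number of hairpins or clones, the time after delivery, or whether RNA with a poly(A) tail was selected.

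Replication-dependent histone genes supply the histones that package newly made DNA, and their transcripts accumulate in S phase. They have no introns, and their messenger RNAs end in a stem-loop in place of a poly(A) tail. The stem-loop is bound by SLBP, and the end is cut with the help of the U7 small nuclear ribonucleoprotein, in nuclear bodies organised by NPAT. The genes lie in clusters of many near-identical copies, so that each histone protein is made from several genes. In some cells single members also give longer transcripts with a poly(A) tail. How such RNAs enter a library depends on whether it was made from tailed RNA.

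The stem-loop was looked up first, because it is what sets these transcripts apart from other messenger RNAs. In GENCODE v29 transcripts, 69 of the 70 genes were found by name, and 31 had a transcript with at least 60 bases after the coding part. Of the genes with higher levels below, HIST1H2BK, HIST1H1C, HIST1H4C, HIST1H4A and HIST2H3D had no such transcript and are outside the 31. Of these 31, 28 held a stem-loop of the form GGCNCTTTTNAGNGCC in that stretch, which is 16 bases long with N for any base. For the 3 without a match, HIST1H1E, HIST1H2BJ and HIST1H3E, this says only that these letters are not in that stretch. The stem-loops came in 5 sequences, given here as DNA with both arms of the stem in capitals.
Most frequent stem-loop (H2A, H2B and H3 genes): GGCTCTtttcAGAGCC
H4 stem-loop: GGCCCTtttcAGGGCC
Stem-loop of HIST1H2BD and others (H2B and H3 genes): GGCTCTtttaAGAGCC
Other H4 stem-loop: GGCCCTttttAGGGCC
HIST1H2AG stem-loop: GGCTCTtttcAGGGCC
The most frequent sequence was found in 15 genes, the H4 sequence in 5, that of HIST1H2BD in 5, the other H4 sequence in 3 and that of HIST1H2AG in 1, a count that includes HIST1H4J, whose annotated transcript is shorter. Both H4 sequences were found in H4 genes and not in genes of other types. Of the 15 genes with the most frequent sequence, 6 were listed at 0 in all 12 values, so the same element stood in genes with and without a measured level. Some annotated transcripts went on well beyond it, by 1128 bases in HIST1H2AC, 1655 in HIST1H4H and 1510 in HIST4H4, against 39 in HIST1H2BD and 86 in HIST1H4B. Genes listed at 0 in all 12 values also had both long and short stretches, from 1917 bases in HIST3H2BB to 35 in HIST2H2AA3.

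The sequences before the transcription start are shown for genes of each type that the results below turn on, since the types differ in the motifs they carry. They are from RefSeq on GRCh38.p14, and 61 of the 70 genes matched an entry; where a gene has several starts, the first listed was used. Capitals mark the TATA box TATAAA, the CCAAT box CCAAT, the octamer ATTTGCAT and the H1 box AAACACA, searched separately on both strands, so that motifs can overlap and a capital run may read as the reverse complement.
HIST1H1C, 250 bases, chr6:26056471-26056720, minus strand: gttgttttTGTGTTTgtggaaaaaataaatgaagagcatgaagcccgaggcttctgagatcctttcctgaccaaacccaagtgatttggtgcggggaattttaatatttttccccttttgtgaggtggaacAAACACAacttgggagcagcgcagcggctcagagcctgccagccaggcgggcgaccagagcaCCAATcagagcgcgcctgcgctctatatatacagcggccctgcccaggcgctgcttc
HIST2H2AC, 250 bases, chr1:149886668-149886917, plus strand: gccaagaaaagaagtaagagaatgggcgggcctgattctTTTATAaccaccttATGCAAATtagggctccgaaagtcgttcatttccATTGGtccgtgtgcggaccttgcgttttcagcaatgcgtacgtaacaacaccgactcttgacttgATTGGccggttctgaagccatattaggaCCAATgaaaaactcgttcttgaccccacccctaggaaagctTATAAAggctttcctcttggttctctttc
HIST1H2BK, 100 bases, chr6:27146859-27146958, minus strand: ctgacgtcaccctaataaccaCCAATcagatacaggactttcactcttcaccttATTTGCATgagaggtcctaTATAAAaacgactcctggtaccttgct
HIST1H2BG, 100 bases, chr6:26216689-26216788, minus strand: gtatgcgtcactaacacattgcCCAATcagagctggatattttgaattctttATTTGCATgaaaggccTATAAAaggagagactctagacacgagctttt
HIST1H3B, 100 bases, chr6:26032100-26032199, minus strand: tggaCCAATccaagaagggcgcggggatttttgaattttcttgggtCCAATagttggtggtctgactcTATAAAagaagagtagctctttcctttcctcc
HIST1H4B, 100 bases, chr6:26027284-26027383, minus strand: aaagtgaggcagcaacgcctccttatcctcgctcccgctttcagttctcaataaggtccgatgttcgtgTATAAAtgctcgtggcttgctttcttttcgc
Within the 250 bases before the start, TATAAA was found in 41 of 61 genes (67.2%, against 10.7% of all 35116 promoters in the table). CCAAT was found in 51 of 61 (83.6%, against 32.0%), and in 3 of the 13 H4 genes matched. The octamer occurred in 14 of 18 H2B genes and 10 of 14 H2A genes, in 0 genes of the other types, and in 1.63% of all promoters. Some H2A and H2B genes lie on opposite strands with almost the same bases before their starts, such as HIST1H2AC with HIST1H2BC and HIST1H2AM with HIST1H2BO. In such pairs the same octamer, CCAAT or TATAAA can count for both genes, so these counts are not all of separate elements. The H1 box stood in all 6 H1 genes and in 0 others (4.82% of all promoters). HIST1H2BK and HIST1H2BG both carry the CCAAT box, the octamer and the TATA box in the stretch shown, while the first had the highest level of all members and the second was listed at 0 throughout.

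Levels are given as FPKM, which corrects fragment counts for transcript length and for library size. Where the 3 values of a gene in a group differed, they were always sorted as text strings, so columns could not be read as libraries and no sum over genes could be made for a library. Depth is unknown, since no counts were given. Nothing in the labels ties the libraries of a group to separate cultures. The p-values therefore reflect the spread between libraries alone, which may be technical. EZH2 was lower with its shRNA, at 46.6% of the control mean (log2 fold change -1.06, adjusted p = 1.34e-05). ZRANB1 stood at 88.2% of its control (adjusted p = 0.349), so a lower target transcript was not shown in the libraries labelled ZRANB1 siRNA. In these libraries the level of EZH2 was lower as well, at 62.5% (adjusted p = 5.43e-05). The 5 mesenchymal genes used as markers of the line summed to between 3421 and 4085 FPKM in the 4 groups, led by VIM; CD44 and SPARC went from 264 and 116 FPKM with the scramble shRNA to 118 and 47.6 FPKM with the scramble siRNA. Of 5 genes low or absent in the line, PGR was at 0 in all 12 values and ESR1 and CDH1 had means of 0.010 and 0.014 FPKM. ERBB3 had a mean of 1.62 FPKM and EPCAM one of 5.81 FPKM, and EPCAM differed between the scramble groups (3.53 and 8.23 FPKM, adjusted p = 9.6e-05). Summed markers of blood, endothelium and fibroblasts ranged from 0.345 to 25.1 FPKM over the groups and moved with them. COL1A1 had 24.6 FPKM in the scramble shRNA libraries, 19.3 FPKM after EZH2 knockdown, 8.14 FPKM in the scramble siRNA libraries and 17.0 FPKM in the libraries labelled ZRANB1 siRNA (adjusted p = 2.9e-07 between the scramble groups and 4.2e-05 in the ZRANB1 comparison), and CD14 went from 3.90 to 0.243 FPKM between the scramble groups. The part of these differences in the histone values was not tested.

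Most members had little or no signal. Of the 70, 27 were listed at 0 in all 12 values (38.6%, against 23.3% of all symbols), 20 were above 0 in some values and 23 in all 12. To enter the test a gene needed a mean of 1 FPKM or more, which 25 members reached: 2 of 6 H1, 5 of 16 H2A, 9 of 20 H2B, 4 of 12 H3 and 5 of 15 H4 genes. The nearest members below that level were HIST1H3A at 0.942 FPKM and HIST1H2AB at 0.930 FPKM, and the nearest above it were HIST1H2AH at 1.75 FPKM and HIST1H2BN at 1.77 FPKM. A gene listed at 0 may be unexpressed or may have failed estimation, and these cannot be told apart here. Of the 8 other RNAs without a poly(A) tail that the table held, 5 had a mean of 1 FPKM or more: RMRP, the RNA of a mitochondrial RNA-processing ribonuclease, had a mean of 181.6 FPKM, RPPH1, the RNA of ribonuclease P, 37.7 FPKM and TERC, the telomerase RNA, 13.5 FPKM.

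The members with a level were few and unequal. HIST1H2BK, which encodes an H2B, had the highest mean, 51.7 FPKM, rank 1807 of 24556 symbols. HIST1H1C, which encodes the linker histone H1.2, followed at 37.7 FPKM and the H4 gene HIST1H4C at 23.5 FPKM. The H4 genes HIST1H4B and HIST1H4H stood at 15.6 and 15.2 FPKM, the H2A gene HIST1H2AC at 14.1 FPKM, HIST1H4A at 11.01 FPKM and the H2B gene HIST1H2BD at 10.7 FPKM. These 8 genes made up 72.9%, 70.2%, 69.7% and 73.2% of the summed FPKM of all members with the scramble shRNA, the EZH2 shRNA, the scramble siRNA and in the libraries labelled ZRANB1 siRNA. No H3 gene passed 10 FPKM. The highest was HIST2H3D at 9.52 FPKM, followed by HIST1H3B at 3.34 FPKM. HIST2H2BA at 5.82 FPKM, HIST2H2BC at 1.79 FPKM and HIST1H2APS1, listed at 0, are annotated as pseudogenes, and HIST1H1T, HIST1H2AA, HIST1H2BA and HIST3H3, known as testis genes, were at or near 0.

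Members listed at 0 lay next to each other along the chromosome. In GENCODE v29 the genes of the HIST1 cluster lie on chromosome 6. The order here is among members matched by name only, and the merged entry of HIST1H2AD with HIST1H3D had no match. In that order 14 neighbours in a row, from HIST1H2BE to HIST1H2BI, lay between HIST1H2BD (10.7 FPKM) and HIST1H4H (15.2 FPKM). Of these 14, 13 were listed at 0 in all 12 values, and 1 value of HIST1H2BE was the single one above 0. The run held genes of all 5 types, 8 on the plus strand and 6 on the minus strand, HIST1H2BG among them. Shorter runs of 4 genes at 0 stood at the HIST1H2AA end of the cluster (HIST1H2AA, HIST1H2BA, HIST1H2APS1 and HIST1H1A) and between HIST1H2AK and HIST1H3J (HIST1H2AL, HIST1H1B, HIST1H3I and HIST1H4L). The genes with the highest levels were split over both sides of the long run, HIST1H1C and HIST1H4C on the one and HIST1H2BK on the other. The runs were noticed in the values.

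**Figure D1:**
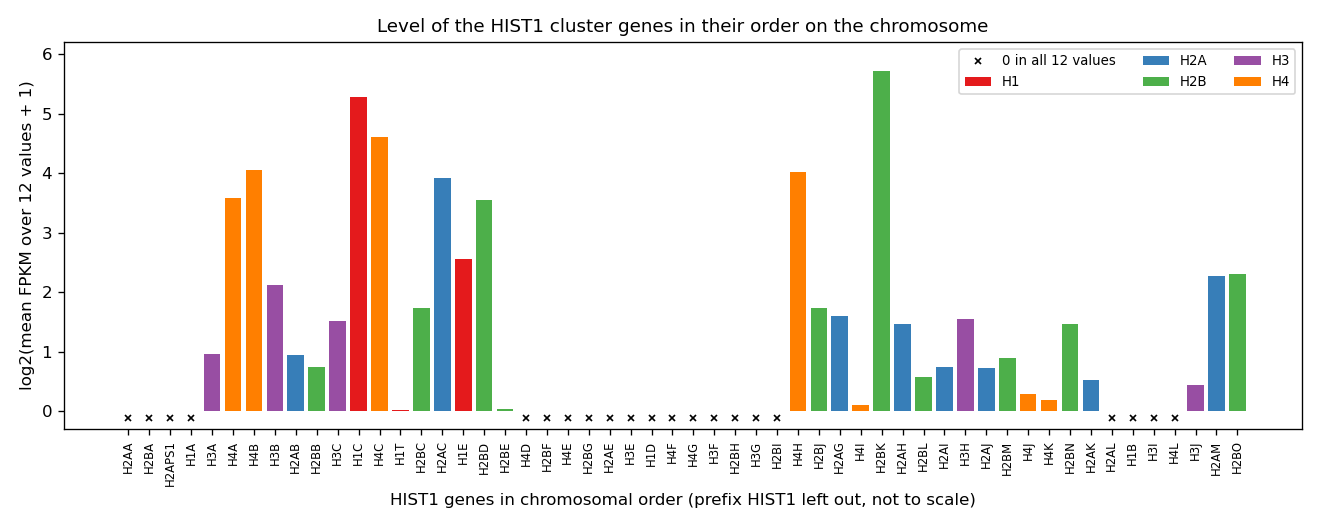
Mean level of the HIST1 genes over the 12 values, as log2(mean FPKM + 1), in their order on chromosome 6 with even spacing, and bars coloured by histone type; crosses mark genes listed at 0 in all 12 values. Only members matched by name are placed. A run of 14 of them between HIST1H2BD and HIST1H4H, 13 at 0 throughout, parts the cluster into 2 stretches with signal.

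Sequence shared between copies bears on these zeros and levels, since a counting program may split or drop reads that match several genes. The share of 50-base windows of the coding part that occur in a transcript of another gene was computed for 66 members. Both strands were searched, so transcripts of neighbours that overlap a gene count as well as copies. Among members listed at 0 throughout, the median share was 0%, and 17 of 25 had no shared window. In 4 of the 25, HIST2H2AA3, HIST2H3A, HIST2H4A and HIST2H4B, every window was shared. Among the 21 above 0 in all 12 values the median was 3.88%, 8 had no shared window and 0 had every window shared. HIST1H2BK had 73.9% of its windows in other genes, 61.1% in H2BFS alone, and HIST2H3D 81.1%, HIST2H2BF 75.1% and HIST2H2AC 30.8%. HIST1H2AM had the highest share of the 21, 87.1%, with HIST1H3J, an H3 gene beside it in the order. The levels of these genes are therefore uncertain as to which copy they came from. HIST1H1C, HIST1H3B, HIST1H4C, HIST1H4A and HIST4H4 had 0% and are free of this limit at that window length.

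**Figure D2:**
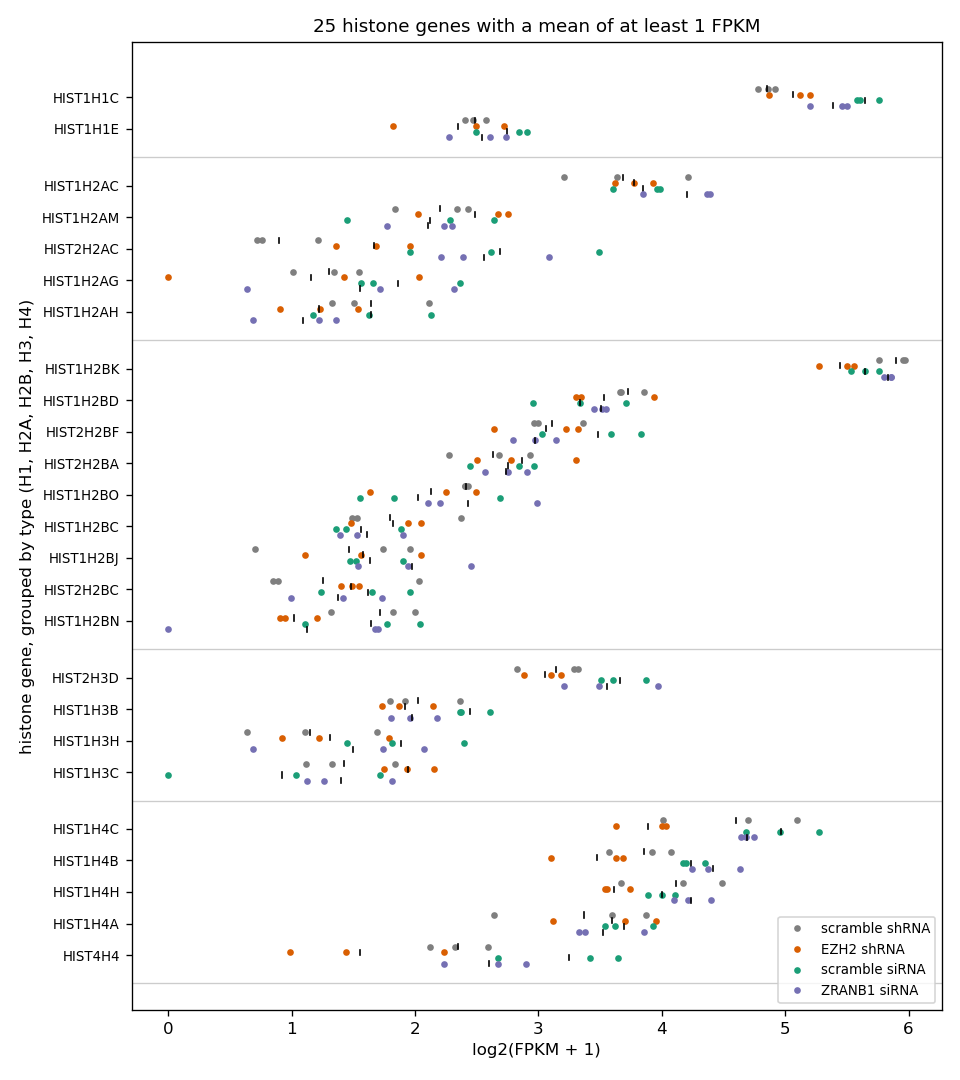
Every value of the 25 members with a mean of at least 1 FPKM, as log2(FPKM + 1), 3 points per group, with a short black line at the mean of the log2 values; genes are grouped by histone type. HIST1H2BK with the EZH2 shRNA lies below its scramble shRNA control, and HIST1H1C and HIST2H2AC lie higher in the scramble siRNA group than in the scramble shRNA group.

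Summed over types, H2B and H4 genes made up most of the level in every group. H2B came to 100.4, 81.0, 89.2 and 94.6 FPKM with the scramble shRNA, the EZH2 shRNA, the scramble siRNA and in the libraries labelled ZRANB1 siRNA. For H4 the sums were 69.7, 49.2, 85.0 and 79.3 FPKM in the same order, and for H1 32.5, 36.9, 55.0 and 45.9 FPKM. H2A and H3 were lower, at 23.7, 24.7, 32.0 and 33.1 FPKM and at 15.3, 15.7, 21.7 and 19.2 FPKM. Since columns did not follow libraries, the SD of a sum is known only by its upper limit, the sum of the members' SDs. The H4 sum with the EZH2 shRNA was 0.706 times that of its control, a difference of -20.5 FPKM beside added limits of 33.3 FPKM. Between the scramble groups the H1 sums differed by 22.5 FPKM, beyond the added limits of 6.16 FPKM; it was the one sum, of those compared by type, to differ by more than its limits. A single gene set the H1 sums: without HIST1H1C they were 4.59, 4.30, 5.76 and 4.87 FPKM.

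**Figure D3:**
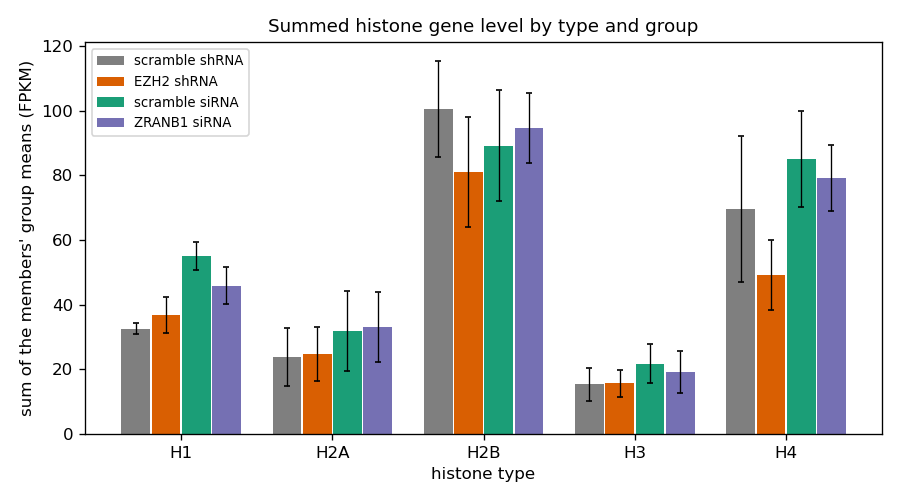
Sum of the members' group means in FPKM for each histone type, 1 bar per group; error bars give the upper limit of the SD of the sum (the members' SDs added). H4 had 69.7 FPKM in the scramble shRNA group and 49.2 FPKM in the EZH2 shRNA group, with overlapping error bars, and H1 was at 32.5 and 55.0 FPKM in the 2 scramble groups.

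Against the scramble shRNA, 1 histone gene passed the test with the EZH2 shRNA, the H2B gene HIST1H2BK, which fell. Of the 25 members tested, 0 rose and 1 fell (4%, against 6.41% of all 11929 genes tested, 3.39% higher and 3.03% lower), and 24 did not pass an adjusted p of 0.05 in limma. At an unadjusted p under 0.05 there were 6 members, against 21.4% of all genes. The median log2 fold change over the 25 was -0.09, beside -0.01 over all genes tested. The share of members called was thus close to that of all genes.

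The gene that fell was HIST1H2BK. Its values were 53.3, 61.1 and 61.8 FPKM with the scramble shRNA and 37.8, 44.2 and 46.1 FPKM with the EZH2 shRNA. The highest value with the EZH2 shRNA lay below the lowest control value. The means were 58.7 ± 4.71 and 42.7 ± 4.36 FPKM (SD, n = 3), and the log2 fold change was -0.45 (standard error 0.092, adjusted p = 0.0151). The call was lost when the 6 values of both groups were fitted alone (adjusted p = 0.104) and in 2 of 6 fits that left out 1 value, both of the scramble shRNA (up to 0.0605), and the adjusted p ran from 0.0110 to 0.104 over 14 alternatives. Fewer cells in S phase and less of a transcript per cell cannot be told apart in bulk RNA, for this and for the other members. The H2B genes HIST1H2BD (12.3 ± 1.04 and 10.8 ± 3.04 FPKM) and HIST2H2BF (7.69 ± 1.39 and 7.52 ± 2.02 FPKM) overlapped between the groups. HIST1H2BN, also an H2B gene, had 1.49, 2.53 and 2.9999 FPKM with the scramble shRNA and 0.872, 0.926 and 1.31 FPKM with the EZH2 shRNA, which did not overlap but did not pass the test (log2 fold change -0.69, adjusted p = 0.363).

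No H4 gene was called with the EZH2 shRNA. The log2 fold change was below 0 in 4 of the 5 tested, beside 6328 of all 11929 genes. An unadjusted p under 0.05 (limma) was found for 4, against 21.4% of all genes. The median was -0.50, beside -0.01 over all genes. HIST1H4C had 15.1, 24.9 and 33.2 FPKM with the scramble shRNA and 11.4, 15.0 and 15.4 FPKM with the EZH2 shRNA. Its groups overlapped by the lowest control value, and the log2 fold change of -0.71 had an adjusted p of 0.103. HIST1H4H had 11.7, 17.1 and 21.4 FPKM against 10.7, 10.7 and 12.4 FPKM, again with the lowest control value inside the other range (-0.50, adjusted p = 0.112). HIST1H4B stood at 13.6 ± 2.51 and 10.3 ± 2.32 FPKM (-0.38, adjusted p = 0.218) and HIST4H4 at 4.12 ± 0.857 and 2.14 ± 1.41 FPKM (-0.79, adjusted p = 0.179). HIST1H4A, at 9.99 ± 4.29 and 11.4 ± 3.46 FPKM, had a log2 fold change of 0.22. Over the 6 fits that left out 1 value, the log2 fold change of HIST1H4C ran from -1.01 to -0.46 (adjusted p from 0.0173 to 0.285) and that of HIST1H4H from -0.72 to -0.31 (0.0133 to 0.303). Each passed in 1 of these fits, both without a scramble shRNA value.

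Linker, H2A and H3 genes gave no call with the EZH2 shRNA. HIST1H1C had 26.5, 28.0 and 29.2 FPKM with the scramble shRNA and 28.2, 33.8 and 35.7 FPKM with the EZH2 shRNA, overlapping ranges (log2 fold change 0.21, 95% interval -0.021 to 0.44, adjusted p = 0.281). The other H1 gene tested, HIST1H1E, stood at 4.595 ± 0.338 and 4.25 ± 1.56 FPKM. HIST2H2AC, an H2A gene of the HIST2 cluster, had 0.645, 0.689 and 1.31 FPKM against 1.56, 2.202 and 2.90 FPKM, a higher range without overlap that did not pass the test (0.77, adjusted p = 0.226). Of the 25 tested members, 1 lay wholly above and 2 wholly below their controls, beside 22.1% of all genes without overlap (10.6% above and 11.6% below). Below the filter and untested, HIST1H2AI and HIST1H2BB also lay wholly below, at 0.304 against 0.935 and 0.427 against 1.40 FPKM. Each had a 0 among its EZH2 shRNA values, and no share over all genes was taken at that level. HIST1H2AC, with 12.4 ± 4.72 and 12.7 ± 1.45 FPKM, HIST2H3D, with 7.95 ± 1.60 and 7.34 ± 0.886 FPKM, and HIST1H3B, with 3.13 ± 0.885 and 2.80 ± 0.566 FPKM, differed by less than their SDs.

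In the libraries labelled ZRANB1 siRNA no replication-dependent histone gene passed the test against the scramble siRNA. By limma, 0 of 25 members rose and 0 fell, against 16.6% of all genes (10.1% higher and 6.5% lower), and 3 had an unadjusted p under 0.05, against 29.5% of all genes. The median log2 fold change was -0.13, beside -0.02 over all genes. No overlap between the groups was seen in 3 of the 25, 1 higher and 2 lower, beside 36.4% of all genes (18.5% higher and 18% lower). Below the filter and untested, HIST1H2AJ lay wholly above the scramble siRNA values, at 1.21 against 0.349 FPKM, with no share over all genes taken at that level.

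The H3 gene HIST1H3B had the lowest adjusted p of the 25. Its values were 4.15, 4.17 and 5.08 FPKM with the scramble siRNA and 2.49, 2.88 and 3.52 FPKM in the libraries labelled ZRANB1 siRNA, without overlap. The log2 fold change was -0.47 (95% interval -0.82 to -0.11) with an adjusted p of 0.0731, and 0.0474 when these groups were fitted alone. HIST1H1C had 46.8, 47.7 and 53.2 FPKM against 35.7, 43.0 and 44.4 FPKM. All 3 of the latter lay below the scramble siRNA values (-0.26, adjusted p = 0.120). HIST1H2BK went the other way, with 45.3, 49.2 and 53.3 FPKM against 54.6, 56.9 and 57.1 FPKM, again without overlap (0.19, 95% interval -0.013 to 0.39, adjusted p = 0.200).

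The H4 genes gave means on either side of their control. HIST1H4C had 30.8 ± 6.50 FPKM in the scramble siRNA group and 24.8 ± 0.931 FPKM in the libraries labelled ZRANB1 siRNA (SD, n = 3), HIST1H4B at 17.9 ± 1.33 and 20.5 ± 2.97 FPKM and HIST1H4H at 15.0 ± 1.21 and 17.9 ± 2.05 FPKM. Their adjusted p-values were 0.475, 0.538 and 0.390. HIST4H4 had 8.87 ± 3.16 and 5.17 ± 1.38 FPKM (-0.65, adjusted p = 0.206). The H2B gene HIST2H2BF had 7.16, 11.02 and 13.2 FPKM against 5.92, 6.83 and 7.85 FPKM, which overlapped by 1 value (-0.51, adjusted p = 0.145, and 0.0435 in 1 fit without 1 scramble siRNA value). HIST1H2AC, HIST2H2AC and HIST2H3D had adjusted p-values of 0.343, 0.860 and 0.775.

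**Figure D4:**
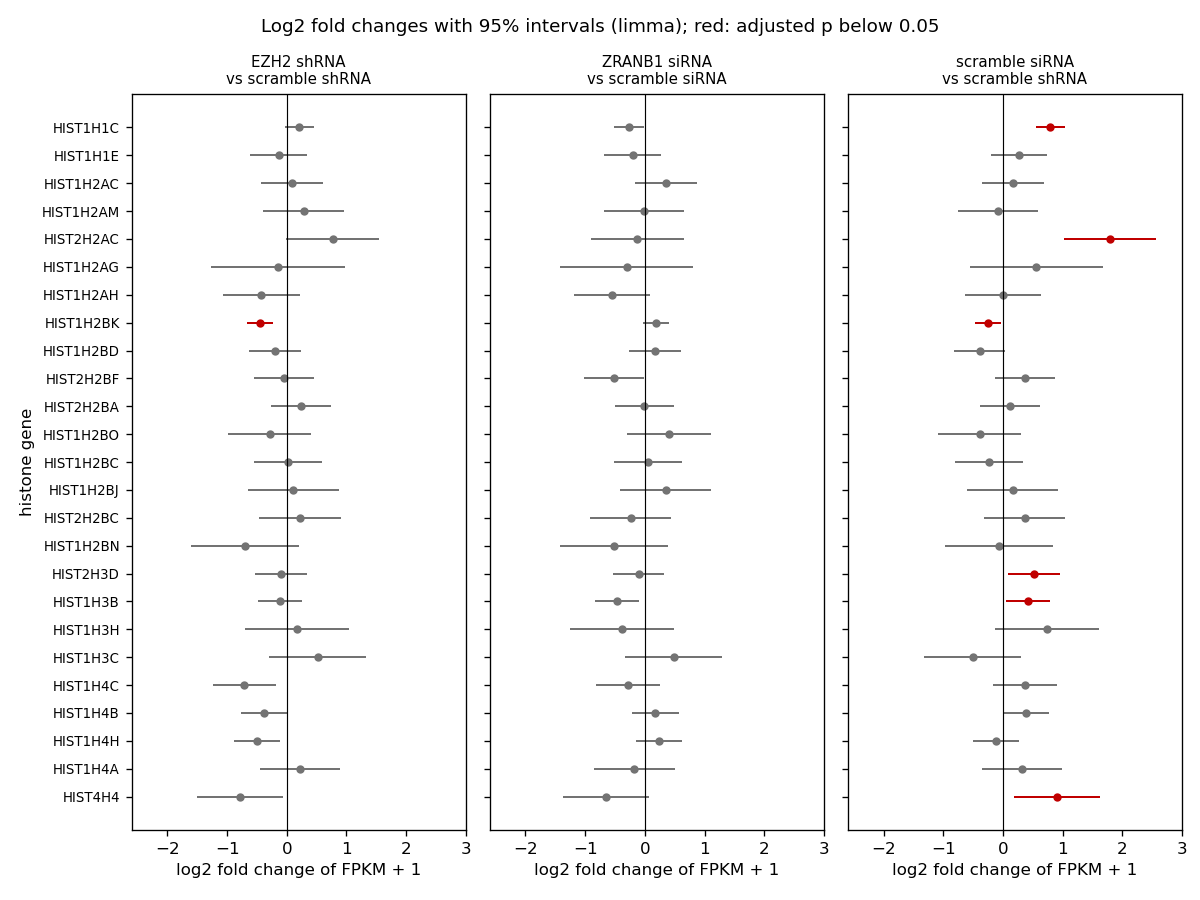
Log2 fold change of FPKM + 1 with its 95% interval from limma for the 25 members, in the 3 comparisons of groups. Red marks an adjusted p below 0.05 over all 11929 genes. HIST1H2BK is red with the EZH2 shRNA, no gene is red in the libraries labelled ZRANB1 siRNA, and 6 genes are red between the 2 scramble groups.

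The EZH2 and ZRANB1 comparisons were set against each other by the difference of their effects, the ZRANB1 siRNA effect minus the EZH2 shRNA effect. HIST1H2BK was the member called, with a difference of 0.64 (standard error 0.13, adjusted p = 0.00851), which is 1 of 25 against 10.5% of all genes (6.91% higher and 3.58% lower). At an unadjusted p under 0.05 there were 4 members, against 23.9% of all genes. The value stayed between 0.56 and 0.71 and past the threshold under all 19 alternatives run. HIST1H4H had a difference of 0.74 (adjusted p = 0.0778) and HIST1H1C of -0.47 (adjusted p = 0.0700). The delivery of the RNA, virus or transfection, is not separated from the target in this difference.

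Of the 3 comparisons, that of the control groups had the most members called. It shares the scramble shRNA libraries with the EZH2 comparison and the scramble siRNA libraries with the ZRANB1 comparison. Against the scramble shRNA, 5 members rose and 1 fell with the scramble siRNA, 24% of the 25, beside 50.6% of all genes tested (25.5% higher and 25.1% lower). At an unadjusted p under 0.05 there were 7 members, against 56.5% of all genes. Of the 25, 7 were higher and 1 was lower without overlap, beside 59.9% of all genes (30.8% higher and 29.2% lower). Below the filter and untested, HIST1H2BB lay wholly below, at 0.277 FPKM with the scramble siRNA against 1.40 FPKM, with no share over all genes taken at that level. The median log2 fold change was 0.26, beside 0.01 over all genes. The share called was lower than over all genes, a description with no test of its own.

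HIST2H2AC rose the most. It went from 0.645, 0.689 and 1.31 FPKM with the scramble shRNA to 2.88, 5.13 and 10.2 FPKM with the scramble siRNA, with a log2 fold change of 1.79 (standard error 0.35, adjusted p = 0.00118). HIST1H1C rose from 27.9 ± 1.37 to 49.3 ± 3.45 FPKM (SD, n = 3), 176% of the scramble shRNA level (0.80, adjusted p = 7.5e-05). Neither gene's ranges overlapped. HIST4H4 rose from 4.12 ± 0.857 to 8.87 ± 3.16 FPKM (0.90, adjusted p = 0.0342), HIST2H3D from 7.95 ± 1.60 to 11.7 ± 1.72 FPKM (0.52, adjusted p = 0.0403) and HIST1H3B from 3.13 ± 0.885 to 4.47 ± 0.533 FPKM (0.42, adjusted p = 0.0480). HIST1H2BK fell from 58.7 ± 4.71 to 49.3 ± 3.99 FPKM (-0.25, adjusted p = 0.0407). Over the alternatives the calls of HIST1H1C and HIST2H2AC held in all 14 and 13 run, and those of HIST4H4, HIST2H3D, HIST1H3B and HIST1H2BK in 9, 9, 5 and 9. The scramble groups also differ in the way RNA was delivered and may differ in the time of culture, so no single source of these differences can be told apart.

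Replication-independent histone variants are made through the cell cycle, mostly from genes with introns and as RNAs with a poly(A) tail, and serve as a contrast from the same protein family. The 12 variant genes summed to 1953, 1859, 2620 and 2255 FPKM with the scramble shRNA, the EZH2 shRNA, the scramble siRNA and in the libraries labelled ZRANB1 siRNA, which is 8.08, 8.96, 9.26 and 8.29 times the sum of the 70 replication-dependent genes. Of 10 variants tested, 0 rose and 1 fell with the EZH2 shRNA (10%, beside 6.41% of all genes). That was H2AFZ, which encodes H2A.Z, from 608 ± 19.2 to 503 ± 40.7 FPKM (log2 fold change -0.28, adjusted p = 0.0255, and up to 0.174 over 14 alternatives, past the threshold in 9). In the libraries labelled ZRANB1 siRNA, 3 of 10 fell (30%, beside 16.6% of all genes): the linker variant H1F0, from 242 ± 6.42 to 176 ± 8.09 FPKM (-0.46, adjusted p = 0.000995), the centromeric H3 variant CENPA, from 49.4 ± 0.676 to 39.8 ± 1.62 FPKM (-0.31, adjusted p = 0.0121), and H1FX, from 408 ± 63.4 to 282 ± 29.7 FPKM (-0.53, adjusted p = 0.0411, with 6 of 14 alternatives above 0.05). Between the scramble groups 5 of 10 were higher with the siRNA and 0 lower (50%, beside 50.6% of all genes), H1FX with 1.59, H1F0 with 0.91, CENPA with 0.73, H3F3B with 0.56 and H2AFJ, named after its value was seen, with 0.33 on the log2 scale. H1F0 and H1FX were thus higher with the scramble siRNA, as was the replication-dependent linker gene HIST1H1C.

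**Figure D5:**
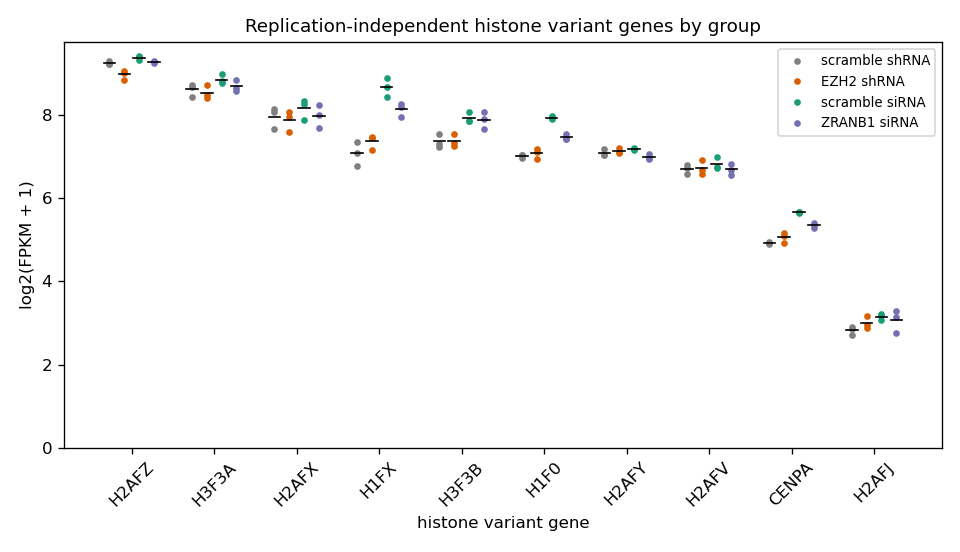
Values of the 10 tested replication-independent variant genes as log2(FPKM + 1), 3 points per group, with a black line at the mean of the log2 values. H2AFZ with the EZH2 shRNA lies below its control, and H1F0, H1FX and CENPA are highest with the scramble siRNA.

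Of 28 genes tested that process or degrade histone messenger RNA, 0 were called by limma with the EZH2 shRNA (6.41% of all genes) and 5 had an unadjusted p under 0.05, with a median log2 fold change of -0.05. SLBP, the stem-loop binding protein, stood at 62.4 ± 4.94 and 50.6 ± 2.78 FPKM (-0.30, adjusted p = 0.0588). Of the same 28, 1 rose and 1 fell in the libraries labelled ZRANB1 siRNA (7.14%, beside 16.6% of all genes). Between the scramble groups 8 were higher and 5 lower (46.4%, beside 50.6%). In the ZRANB1 comparison ZCCHC6, a uridylyl transferase that marks RNAs for decay, rose from 3.49 ± 0.214 to 5.21 ± 0.553 FPKM (limma, adjusted p = 0.00643). SNRPF, a core protein of small nuclear ribonucleoproteins, fell there from 180 ± 18.1 to 141 ± 15.8 FPKM (adjusted p = 0.0481, above 0.05 in 11 of 14 alternatives).

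Of 17 genes linked to histone gene transcription, 0 passed with the EZH2 shRNA (2 at an unadjusted p under 0.05, limma), beside 6.41% of all genes. NPAT, the organiser of histone gene transcription, stood at 12.4 ± 1.55 and 10.6 ± 2.53 FPKM. In the libraries labelled ZRANB1 siRNA LDHA alone of the 17 was called (5.88%, beside 16.6% of all genes), higher at 1038 ± 84 FPKM against 719 ± 55.1 FPKM (adjusted p = 0.00193). LDHA is best known as lactate dehydrogenase A, and it is in the list for its part in the coactivator of H2B genes. Between the scramble groups 2 of the 17 were higher and 5 lower (41.2%, beside 50.6%).

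Among 27 histone chaperones, 0 rose and 1 fell with the EZH2 shRNA (3.70%, beside 6.41% of all genes). It was NASP, a chaperone of linker histones and of H3 with H4, from 107 ± 2.04 to 85.2 ± 1.88 FPKM (log2 fold change -0.32, adjusted p = 0.00821, above 0.05 in 1 of 14 alternatives). In the libraries labelled ZRANB1 siRNA 2 rose and 1 fell (11.1%, beside 16.6%), and between the scramble groups 6 were higher and 9 lower (55.6%, beside 50.6%). In the ZRANB1 comparison UBN1, a subunit of the HIRA complex, rose from 14.4 ± 0.294 to 18.2 ± 0.961 FPKM. ATRX, a remodeller that deposits H3.3 with DAXX, rose there from 6.56 ± 0.816 to 9.54 ± 1.04 FPKM (adjusted p above 0.05 in 3 of 14 alternatives). The nucleolar chaperone gene NPM1 fell in that comparison from 2141 ± 129 to 1538 ± 118 FPKM.

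S-phase and DNA replication genes were followed because histone synthesis is coupled to replication. With the EZH2 shRNA 0 of 44 rose and 4 fell, the helicase subunit genes MCM4 (-0.42), MCM3 (-0.34) and MCM6 (-0.32) and the origin recognition gene ORC6 (-0.32), on the log2 scale. The adjusted p of MCM6 was above 0.05 in 9 of 14 alternatives (up to 0.163), that of ORC6 in 3 (up to 0.111) and that of MCM3 in 1 (0.0612). The median of the 44 was -0.15, beside -0.01 over all genes, with 39 below 0, beside 6328 of all 11929 genes. At an unadjusted p under 0.05 (limma) there were 19 of the 44, against 21.4% of all genes. In the libraries labelled ZRANB1 siRNA 0 rose and 8 fell, around a median of -0.15, among them UNG, a uracil DNA glycosylase gene, from 93.0 ± 1.42 to 65.2 ± 2.57 FPKM, GINS2 from 42.9 ± 1.27 to 32.4 ± 1.80 FPKM, and POLE, the catalytic subunit of DNA polymerase epsilon, from 40.4 ± 2.71 to 29.3 ± 2.14 FPKM. The share of the 44 called was 9.09% with the EZH2 shRNA and 18.2% in the libraries labelled ZRANB1 siRNA, beside 6.41% and 16.6% of all genes. In the latter libraries 36 of the 44 were below 0, beside 6351 of all 11929 genes. There 16 had an unadjusted p under 0.05 (limma), against 29.5% of all genes. Between the scramble groups 13 were higher and 8 lower (47.7%, beside 50.6%). The part of these genes' levels in the histone values was not tested. RNAs without a poly(A) tail gave 0 calls by limma in each comparison among 5 tested, beside 6.41%, 16.6% and 50.6% of all genes. At an unadjusted p under 0.05 there were 1, 0 and 0 for the EZH2 shRNA, the ZRANB1 siRNA and the scramble groups. Over all genes the shares were 21.4%, 29.5% and 56.5%. In the same order the log2 fold changes of the 5 ran from -0.65 to 2.74, -2.72 to 0.18 and -0.35 to 2.72. RMRP stood at 164 ± 64.6, 162 ± 36.9, 199 ± 24.6 and 200.5 ± 26.9 FPKM in the 4 groups.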

How the data were processed

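RNA of 12 libraries, 3 in each of 4 groups, was read from the authors' deposited table of FPKM values, which holds 26006 gene rows. The submitters' processing notes name build hg19, the aligner TopHat2 2.1.1, SAMtools, and for quantification Cufflinks 2.2.1 with Cuffdiff 2.2.1. Options, annotation and strand setting are not given there. FPKM divides by transcript length and library size, so short RNAs can receive high or failed estimates, and no depth per sample can be given. Within each group the deposited values stood in text order in 100% of genes with 3 different values (in numeric order in 93.6% to 95.0%), so columns were not taken as libraries. Group means and SDs do not depend on that order.

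Of 440 repeated symbols the entry with the highest mean was kept, and 27 entries whose symbols had become dates stayed separate. Genes were tested with limma 3.58.1 (R 4.3.3) on log2(FPKM + 1), for the 11929 whose mean reached 1 FPKM, all 4 groups in 1 fit (8 residual degrees of freedom) with a variance trend, and Benjamini-Hochberg adjustment over all genes tested at 0.05. A fold change is on this log2 scale and understates changes of low genes. For 3 values against 3, p = 0.1 is the smallest that an exact permutation test (two-sided) can give. Each of these was tried as an alternative: adding 0.1 in place of 1, dropping the filter or raising it to 5 FPKM, the compared groups alone, no trend, 1 scaling factor per group, repeated symbols summed, small RNA symbols left out, and 1 value per gene left out after a seeded random order. Steps were tested on simulated data. Figures used Python 3.11.15, pandas 2.3.3 and matplotlib 3.10.9. Sequences are from RefSeq on GRCh38.p14 and GENCODE v29; no coordinates were taken from the hg19 files.

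Genes named are EZH2 and ZRANB1, the 3 members of each type with the highest mean, members called in any comparison, and up to 4 genes of each list per comparison by adjusted p. HIST1H4A, HIST4H4, HIST1H2BN, HIST1H2AB, HIST1H3A, HIST1H2AH, HIST1H2AI, HIST1H2AJ, HIST1H2BB, HIST1H4K, HIST2H2BA, HIST2H2BC, SLBP, NPAT, RMRP, RPPH1, TERC and H2AFJ were named after their values were seen. So were the genes of the silent runs, the testis genes and those shown by or named for their sequence. The members and lists were chosen with earlier results of these data known.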

Additional observations from a re-analysis of the deposited data

Results flagged for a closer look

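Over all genes tested, 10.5% were called in the difference of the EZH2 shRNA and ZRANB1 siRNA effects. Among the members, the targets and the list genes named for a call, 9 had effects of the ZRANB1 siRNA and the EZH2 shRNA that differed. The test was that of the difference itself (limma, ZRANB1 siRNA effect minus EZH2 shRNA effect, log2 scale, 3 values per group). The list genes had been named for a call on values that also enter this difference, which favours a call here. The 9 are thus not a share comparable with the 10.5%. Among the replication-dependent histone genes the gene called was HIST1H2BK, with 0.64. Among the variants it was H1FX with -0.82, H1F0 with -0.52 and CENPA with -0.43, each lower in the libraries labelled ZRANB1 siRNA and not called with the EZH2 shRNA. LDHA had 0.71 and the chaperone NASP 0.38. For the replication genes UNG and GINS2 the differences were -0.36 and -0.32. EZH2 had 0.39, being lowered in both comparisons and more with its own shRNA. For EZH2 6 of 19 alternatives put the adjusted p above 0.05, up to 0.0628. Alternatives of the difference were drawn up for HIST1H2BK, EZH2 and ZRANB1, and not for the list genes.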

How the results depend on the processing

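Of 483 alternative values for the 35 results on named members, 437 kept their direction and side of the threshold, 26 were no longer past it, 4 came past it and 16 changed sign, all 16 among members not called and all by leaving out 1 value. Fitting the compared groups alone left 0 members lower with the EZH2 shRNA, 1 lower in the libraries labelled ZRANB1 siRNA and 0 lower between the scramble groups, and over all genes 104 higher and 81 lower with the EZH2 shRNA. Without a filter the scramble groups gave 2 members higher and 3 lower; of the latter, HIST1H2BB and HIST1H4K had means below 1 FPKM and were not tested otherwise. At 5 FPKM they gave 3 higher, and over all genes 260 were higher with the EZH2 shRNA and 268 lower in the difference of effects, with fewer genes tested; other causes were not tested.

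Leaving out 1 value per gene gave 216 to 306 genes higher and 188 to 270 lower with the EZH2 shRNA, and 938 to 954 higher and 460 to 503 lower in the libraries labelled ZRANB1 siRNA. For the difference of effects it gave 652 to 791 higher and 304 to 402 lower, and between the scramble groups 2680 to 2726 higher and 2644 to 2730 lower. Members called were then 0 higher and 1 lower with the EZH2 shRNA (HIST1H4C or HIST1H4H in place of HIST1H2BK in 2 of 6 fits), 0 higher and 0 to 1 lower in the libraries labelled ZRANB1 siRNA, 1 to 2 higher and 0 to 1 lower in the difference, and 3 to 4 higher and 0 to 2 lower between the scramble groups. The log2 fold changes that changed sign ran with the EZH2 shRNA from -0.32 to 0.12 (HIST1H1E), -0.15 to 0.35 (HIST1H2AC), -0.23 to 0.058 (HIST1H3B), -0.093 to 0.44 (HIST1H3H) and -0.18 to 0.16 (HIST2H2BF). In the libraries labelled ZRANB1 siRNA they ran from -0.36 to 0.24 (HIST1H2AM), -0.019 to 0.36 (HIST1H2BD), -0.67 to 0.020 (HIST1H3H), -0.49 to 0.27 (HIST2H2AC) and -0.31 to 0.068 (HIST2H3D).

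Without its highest member, each type summed, with the shRNA groups before the siRNA groups and each control first, to 4.59, 4.30, 5.76 and 4.87 FPKM (H1), 11.3, 11.98, 18.5 and 15.4 FPKM (H2A), 41.7, 38.3, 39.9 and 38.4 FPKM (H2B), 7.39, 8.39, 10.0 and 8.11 FPKM (H3), 45.3, 35.3, 54.3 and 54.5 FPKM (H4) and 183, 165, 234 and 216 FPKM (all). No paired analysis was possible because the columns do not follow libraries, so replicate numbers name no sample. The scaling factors per group lay between 0.998 and 1.009. With 3 values in a group and no counts, precision rests on the spread of these values alone.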
